A study of Homo sapiens with 66 samples.

Results

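Cells of AMO1, a human multiple myeloma line of plasma cell origin, were exposed to halofuginone (HFG) or to the solvent DMSO for 24 h, and their polyadenylated RNA was counted gene by gene. The comparison holds 6 of the 66 libraries of the study, 3 with HFG at 1 µM and 3 with DMSO, chosen by their labels alone. Both groups were AMO1 cells labelled as wild type, and both were kept on ice before their RNA was extracted; they differed in the compound and, by their sample numbers, in the set of samples. The labels give triplicates without saying whether these were separate cultures, so p-values measure the spread between libraries, which may be technical. As a background for the results, libraries of AMO1 cells treated for 24 h at the same dose with halofuginol, NCP26 or NCP22, and libraries of AMO1 cells with HFG or DMSO for 6 h, were read from the same table. AMO1 libraries with the proteasome inhibitor carfilzomib (CFZ), which the paper used at a lower dose, entered the scaling of the values. Those of 24 h also entered the fits of all 18 AMO1 libraries of that time.

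HFG is a derivative of the plant alkaloid febrifugine and occupies the proline and tRNA pockets of prolyl-tRNA synthetase (ProRS), which in human cells is a domain of the bifunctional GluProRS encoded by EPRS1. Uncharged tRNA activates the kinase GCN2, which phosphorylates the initiation factor eIF2; general translation then slows while the transcription factor ATF4 is made, and ATF4 switches on genes for amino acid uptake, amino acid synthesis and tRNA charging. This programme, the integrated stress response (ISR), is of particular interest in plasma cells, whose antibody output makes heavy demands on translation.

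After HFG, 6328 of the 10723 tested genes were called (59%), 3059 as higher (28.5%) and 3269 as lower (30.5%), at a threshold of 0.05 on p-values from the quasi-likelihood test of edgeR, adjusted over every tested gene after Benjamini and Hochberg. Changes of at least 2-fold were found in 1551 genes (14.5%), 678 of them higher (6.32%) and 873 lower (8.14%). Groups without overlap had the HFG libraries above DMSO in 30.9% of tested genes and below in 32.7%. These shares are the background against which each group of genes is read below. All lists were chosen with earlier results of these data known, so their counts describe these libraries and are not independent evidence. Values are CPM, the counts of a gene relative to the library total after TMM scaling, fold changes are on the log2 scale with their standard error (SE), and a gene is said to have risen or fallen only if it passed the test. CPM are shares of a library, so a change of all transcripts together, or of the RNA content of a cell, cannot be told apart from no change. For 1 gene, permuting 3 libraries against 3 gives an exact p of 0.1 at the smallest, so each call leans on the variance shared between genes in the fit.

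The libraries held 1666325 to 2812506 counts with HFG and 2712083 to 5005629 with DMSO. In both groups all 10 plasma cell markers had at least 5 CPM, their summed level running from 5425 to 5634 CPM with HFG and from 8670 to 9172 CPM with DMSO, while no myeloid marker and only CD4 of 9 T and NK cell markers reached 5 CPM in either group. By the sample numbers in the column names, the HFG libraries belong to another set than the DMSO libraries, so the set and the treatment cannot be told apart in this comparison alone. Halofuginol and NCP22 at 24 h cross the same sets: against the same DMSO libraries, halofuginol gave 20 calls in 10943 genes (0.183%), none of 2-fold or more, with 1129 at an unadjusted p under 0.05, and NCP22 gave 0 calls in 10781 by edgeR, with 638 at an unadjusted p under 0.05. HFG replicate 1 stood apart from its own group. Against replicates 2 and 3 the squared deviation of its counts, averaged over genes, was 4.65 and 5.22 times the sampling variance. Between replicates 2 and 3 this ratio was 1.29, and among the DMSO libraries it was 1.3 to 2.00.

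The 4 genes with the largest rise, IFIT2, IFIT1, DDX60 and IFIT3, were interferon-stimulated genes, which encode antiviral effectors, and those with the largest fall included regulators of cell motility. IFIT2 (ENSG00000119922; chr10:89283694-89309271, GRCh38), an RNA-binding antiviral protein, was at 45.2, 59.2 and 47.4 CPM with HFG and at 1.85, 1.65 and 0.604 CPM with DMSO. Every HFG library was thus far above every DMSO library, and the log2 fold change was 5.28 (SE 0.25, adjusted p = 2.1e-12, edgeR; 10.1% of its 31-mers occur in other genes). Its neighbours IFIT1 and IFIT3 rose by 4.50 and 3.82, and DDX60, an antiviral helicase, rose by 4.11. Among the falls, ARHGDIB (chr12:14942031-14961728), a GTPase regulator of blood cells, was at 3.39, 3.33 and 3.31 CPM with HFG against 68.5, 76.8 and 77.5 CPM with DMSO, a log2 fold change of −4.47 (SE 0.16, adjusted p = 6.4e-14, edgeR). S100A4 (chr1:153543613-153550136), a calcium-binding protein linked to motility, was at 7.35, 5.42 and 5.30 CPM against 127, 114 and 123 CPM, a log2 fold change of −4.36 (SE 0.13, adjusted p = 6.8e-15, edgeR). For both genes the 3 HFG libraries lay close together and well below DMSO. The fructose transporter SLC2A5 fell by 4.79, JAKMIP1, which binds microtubules, by 4.71, CMBL, a hydrolase, by 4.50, the 14-3-3 protein SFN by 4.25 and the homeobox factor CUX2 by 4.21 on the log2 scale. Without HFG replicate 1 the log2 fold changes of these genes were, in the same order, −4.39, −4.33, −5.82, −3.86 and −4.13. Of the 31-mers of JAKMIP1 22.9% occur in other genes. SPATA13, RGPD2 and PRSS21 were at 0 to 0.833 CPM in the HFG libraries, on 3 counts or fewer in all, and at 9.46 to 14.1 CPM in the DMSO libraries; 98.2% of the 31-mers of RGPD2 and 38.2% of those of SPATA13 occur in other genes, so these values are uncertain.

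In 4 genes the rise rested largely on HFG replicate 1. KCNK2, a potassium channel, was at 801 CPM in that library, at 68.7 and 63.6 CPM in the other HFG libraries and at 21.3 to 23.9 CPM with DMSO. OR1N1, an olfactory receptor gene, was at 1466, 197 and 213 CPM against 57.0 to 73.0 CPM, EHHADH, a peroxisomal enzyme, at 83.7, 10.4 and 10.9 CPM against 2.13 to 3.70 CPM, and SCARF2, a scavenger receptor, at 328, 30 and 35.1 CPM against 12.9 to 14.4 CPM. The groups did not overlap, but replicate 1 was several times above its group. The log2 fold changes of KCNK2, EHHADH and OR1N1 were 3.69, 3.35 and 3.25. Without HFG replicate 1 they were 1.54, 1.82 and 1.68 and remained past the threshold. With the NCP22 libraries as controls they were 1.62, 1.52 and 1.11 and none was called. With halofuginol libraries as controls they were 2.97, 2.48 and 2.6 and all were called. NCP22 replicate 1 at 24 h, in cells whose other libraries did not share it, held 234 CPM of KCNK2 and 701 CPM of OR1N1, and HFG replicate 2 at 6 h held 468 and 1092 CPM. Among the other genes with the largest rise, TRPM8, a cation channel, was at 23.2, 32.5 and 20.9 CPM against 1.85, 3.07 and 1.61 CPM (log2 fold change 3.52), and MKX, a homeobox factor, at 27.7, 23.8 and 23.9 CPM against 2.96, 1.65 and 3.22 CPM (3.24); in both genes all HFG libraries were high.

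**Figure D1:**
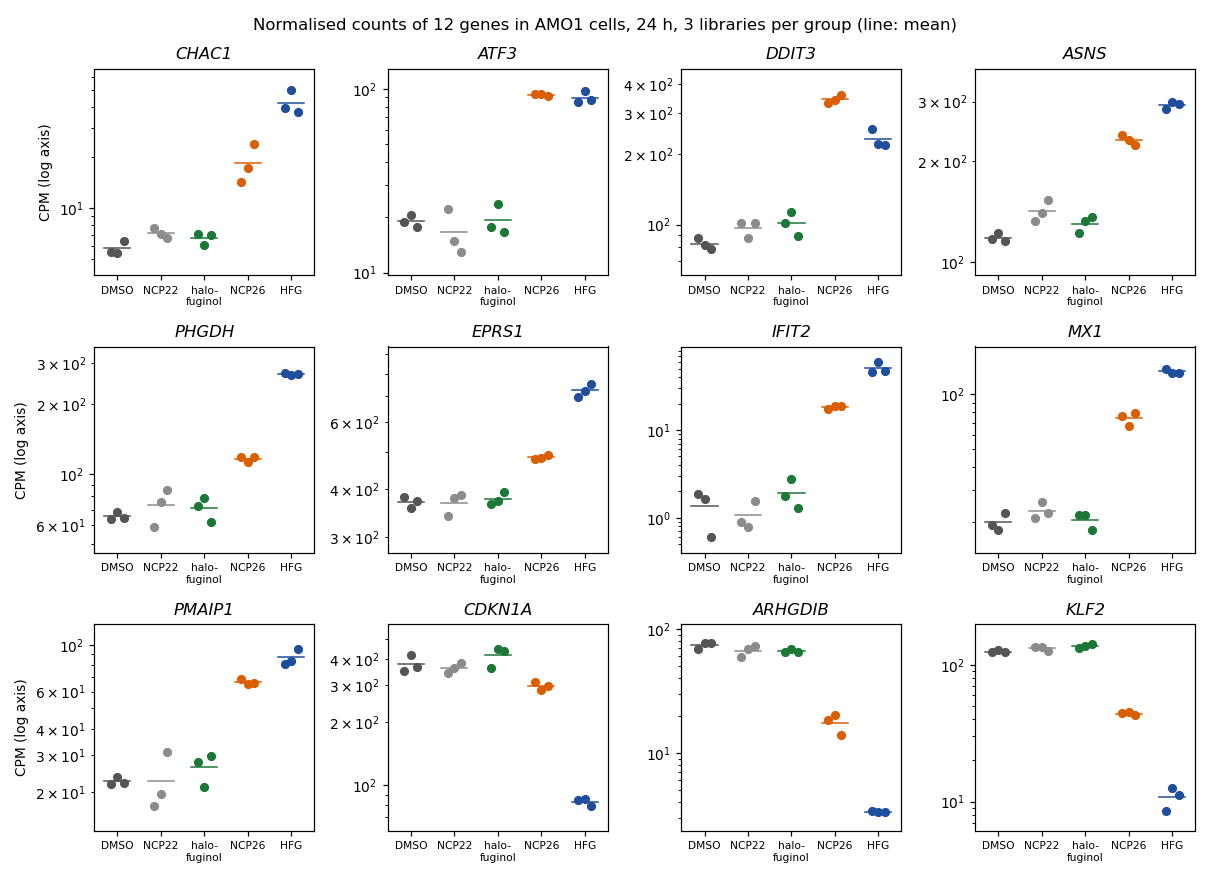
Normalised counts (CPM, log axis) of 12 genes in AMO1 libraries after 24 h with DMSO, NCP22, halofuginol, NCP26 or HFG; points are the 3 libraries of a group and lines their means. The HFG libraries lie apart from DMSO in all 12 genes, for example at 45.2 to 59.2 CPM of IFIT2 against 0.604 to 1.85, while NCP22 and halofuginol lie near the level of DMSO.

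ISR regulators were higher with HFG: of 14 tested genes 10 rose and 1 fell, with a median log2 fold change of 1.08 against −0.00 over all tested genes. CHAC1 (chr15:40952962-40956512), which degrades glutathione, was at 39.0, 50.0 and 37.1 CPM with HFG and at 5.55, 5.43 and 6.44 CPM with DMSO, a log2 fold change of 2.83 (SE 0.18, adjusted p = 1.7e-10, edgeR). ATF3, a stress-induced repressor, was at 84.2, 97.1 and 87.1 CPM against 18.9, 20.6 and 17.7 CPM. TRIB3, a pseudokinase that restrains ATF4, was at 330, 357 and 325 CPM against 96.2, 104 and 109 CPM (log2 fold change 1.7). In these genes each HFG library exceeded each DMSO library. SESN2, a leucine sensor that curbs mTORC1, rose by 1.46, CEBPB and CEBPG, partners of ATF4 on DNA, by 1.5 and 1.11, NFE2L1, which drives proteasome genes, by 1.05, and PPP1R15A, which recruits the phosphatase of eIF2, by 0.79. The exception was DDIT4, another brake on mTORC1, at 520, 594 and 594 CPM with HFG and 869, 931 and 852 CPM with DMSO, which fell by 0.63 on the log2 scale. The mRNA of ATF4 itself was at 719, 761 and 765 CPM against 677, 733 and 708 CPM. The ATF4 values overlapped between the groups and did not pass the test (log2 fold change 0.08, SE 0.04, adjusted p = 0.112, edgeR); it passed without HFG replicate 1 (0.12) and with a GC offset (0.17) and was at −0.06 and −0.10 with NCP22 and halofuginol libraries as controls, and 26.4% of its 31-mers occur in other genes. The list of secreted factors of the ISR also held VLDLR, a lipoprotein receptor of the cell membrane. Of its 6 tested genes, 5 rose and 0 fell (median 1.54). STC2, a glycoprotein hormone, rose by 2.04, INHBE, an inhibin subunit, by 1.89, VLDLR by 1.69 and the peptide ADM2 by 1.39. GDF15 was at 38.4, 20.8 and 25.8 CPM against 21.1, 30.2 and 24.1 CPM.

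Upstream of ATF4, of 10 eIF2 kinases and GCN2 partners 3 rose and 2 fell, shares of 30% and 20% beside 28.5% and 30.5% of all tested genes; without HFG replicate 1 the counts were 4 and 0. EIF2AK4, which encodes GCN2, was at 57.1, 83.3 and 72.2 CPM with HFG and at 46.6, 39.7 and 45.7 CPM with DMSO, without overlap (log2 fold change 0.71, SE 0.12, adjusted p = 3.9e-05, edgeR). IMPACT, an inhibitor of GCN2 activation, was at 33.4, 39.2 and 33.5 CPM against 9.25, 10.4 and 10.7 CPM, a log2 fold change of 1.79. EIF2AK2, the kinase that responds to double-stranded RNA, rose by 0.78, while EIF2AK3, the kinase of the endoplasmic reticulum, was at 201, 196 and 210 CPM against 204, 189 and 188 CPM and did not pass the test.

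Charging enzymes were higher in the cytosol. Of 20 tested cytosolic aminoacyl-tRNA synthetases 15 rose and 2 fell, with a median log2 fold change of 0.48. Of 17 mitochondrial ones 4 rose (23.5%, beside 28.5% of all tested genes) and 5 fell (29.4%, beside 30.5%). EPRS1 (chr1:219968600-220046530), the target of HFG, was at 697, 720 and 754 CPM with HFG and at 382, 359 and 372 CPM with DMSO. All HFG libraries were above all DMSO libraries, at a log2 fold change of 0.97 (SE 0.05, adjusted p = 3.5e-12, edgeR). The largest rises of the list were those of GARS1, the glycyl enzyme, by 1.34, IARS1, the isoleucyl enzyme, by 1.24 and SARS1, the seryl enzyme, by 1.08. QARS1, the glutaminyl enzyme, went the other way and fell by 0.71 on the log2 scale, from 354, 377 and 374 CPM to 215, 225 and 236 CPM.

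Among amino acid transporters, 9 of 18 rose (50%, beside 28.5% of all tested genes) and 4 fell (22.2%, beside 30.5%). SLC7A11, the cystine importer, was at 96.1, 107 and 105 CPM with HFG and at 13.7, 19.1 and 14.3 CPM with DMSO, a log2 fold change of 2.70 (SE 0.12, adjusted p = 6.6e-13, edgeR). SLC6A9, a glycine transporter, rose by 2.11, SLC1A5, a glutamine carrier, by 1.2 and SLC3A2, the common heavy chain of several exchangers, by 1.14. Of 9 genes of the proline pathway itself 3 rose and 3 fell, 33.3% each beside 28.5% and 30.5% of all tested genes. PYCR1, the last enzyme of proline synthesis, was at 158, 165 and 154 CPM against 87.7, 102 and 101 CPM (log2 fold change 0.71; 11.1% of its 31-mers occur in other genes), but ALDH18A1, the first enzyme, was at 82.5, 89.2 and 90.1 CPM against 120, 109 and 111 CPM and fell by 0.37. GLUL, glutamine synthetase, was at 5.65, 4.58 and 5.63 CPM with HFG against 60.7, 70.6 and 65.6 CPM with DMSO. It had the largest fold change of the list, −3.63 (SE 0.15, adjusted p = 6.2e-13, edgeR), with no overlap.

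Enzymes of serine and glycine synthesis and the folate cycle were tested in 16 genes. Of these 8 rose (50%, beside 28.5% of all tested genes) and 4 fell (25%, beside 30.5%). The serine pathway rose at each of its steps: PHGDH, which commits 3-phosphoglycerate to serine, was at 273, 267 and 268 CPM against 64.0, 68.3 and 64.8 CPM (log2 fold change 2.03, SE 0.06, adjusted p = 8.9e-15, edgeR), PSAT1 rose by 1.78 and PSPH by 1.7. CBS and CTH, which carry serine into cysteine, rose by 2.53 and 1.57. ASNS, asparagine synthetase, was at 286, 299 and 296 CPM against 117, 122 and 115 CPM, a log2 fold change of 1.31. SHMT1, the cytosolic enzyme that links serine to folate, fell by 1.62 on the log2 scale. Reads of several of these genes can be divided with related sequences. The shares of 31-mers that occur in other genes were 48.4% for ASNS, 35.5% for CBS, 17.2% for PSPH and 15.3% for PSAT1.

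Promoters of the leading members were read from RefSeq on GRCh38.p14, in the 250 bases before each annotated start. TGATGNAA on either strand, the core of the amino acid response element bound by ATF4 with a C/EBP partner, occurred in 3.89% of all 27305 genes with an entry, in 4 of 14 ISR regulators (28.6%), in 4 of 12 serine and folate genes with an entry (33.3%) and in 3 of 16 cytosolic synthetases (18.8%). Of 16 amino acid transporters with an entry 1 held this core (6.25%). The core occurred in 4.36% of the genes at least 2-fold higher, in 2.79% of those at least 2-fold lower and in 2.19% of tested genes. The core of the interferon-stimulated response element, on either strand, occurred in 3.71% of all genes and in 14 of 23 interferon-stimulated genes with an entry (60.9%). Among the genes at least 2-fold higher the share was 6.73%, among those at least 2-fold lower 3.68% and among tested genes 3.21%. A match describes these letters only. ASNS has a second annotated start, not shown, whose 250 bases hold 0 matches to its motif. The promoters of CHAC1 (chr15:40953221-40953470, plus strand) and ASNS (chr7:97872409-97872658, minus strand) are shown for the first motif and those of IFIT1 (chr10:89392373-89392622), IFIT3 (chr10:89332279-89332528) and ISG15 (chr1:1013247-1013496), all on the plus strand, for the second; capitals mark the matches, which overlap in ISG15.
CHAC1: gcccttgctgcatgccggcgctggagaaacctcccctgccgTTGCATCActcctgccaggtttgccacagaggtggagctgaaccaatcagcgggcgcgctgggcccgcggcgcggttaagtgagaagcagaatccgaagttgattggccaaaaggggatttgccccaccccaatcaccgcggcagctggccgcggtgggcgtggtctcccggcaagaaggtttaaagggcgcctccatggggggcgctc
ASNS: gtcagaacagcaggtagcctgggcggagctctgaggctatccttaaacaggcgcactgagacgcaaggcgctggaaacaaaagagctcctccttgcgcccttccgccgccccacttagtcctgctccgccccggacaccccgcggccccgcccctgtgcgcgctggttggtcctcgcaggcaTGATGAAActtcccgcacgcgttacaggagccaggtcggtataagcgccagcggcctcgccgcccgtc
IFIT1: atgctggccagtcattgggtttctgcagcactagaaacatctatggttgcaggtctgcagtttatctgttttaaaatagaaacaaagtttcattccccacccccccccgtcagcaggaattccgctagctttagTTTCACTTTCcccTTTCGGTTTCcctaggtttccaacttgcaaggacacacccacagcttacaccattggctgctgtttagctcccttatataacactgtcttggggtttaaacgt
IFIT3: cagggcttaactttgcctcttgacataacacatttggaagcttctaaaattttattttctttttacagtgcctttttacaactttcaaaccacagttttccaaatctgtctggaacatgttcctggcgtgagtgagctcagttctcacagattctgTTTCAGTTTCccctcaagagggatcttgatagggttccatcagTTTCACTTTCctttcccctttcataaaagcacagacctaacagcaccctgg
ISG15: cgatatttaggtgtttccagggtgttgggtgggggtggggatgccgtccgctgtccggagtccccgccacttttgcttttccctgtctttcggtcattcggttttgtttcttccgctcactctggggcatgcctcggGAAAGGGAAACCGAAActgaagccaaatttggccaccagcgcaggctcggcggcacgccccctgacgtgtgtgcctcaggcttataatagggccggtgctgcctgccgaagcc

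Of 32 tested interferon-stimulated genes 20 rose (62.5%, beside 28.5% of all tested genes) and 10 fell (31.2%, beside 30.5%), and 13 rose at least 2-fold, with a median log2 fold change of 0.83. The 10 that fell became 5 with NCP22 libraries and 8 with halofuginol libraries as controls. Besides the IFIT genes, MX1, a GTPase that blocks viruses, was at 138, 132 and 132 CPM with HFG and at 19.2, 17.9 and 22.3 CPM with DMSO (log2 fold change 2.73, SE 0.10, adjusted p = 5.6e-14, edgeR). OASL, a sensor of double-stranded RNA, rose by 2.84, the ubiquitin-like modifier ISG15 by 2.11, and IFI6 and the transcription factor IRF7 by 1.40 each. Regulators of the response were lower in part: IRF2, a repressor of the same elements, was at 31.1, 34.2 and 32.1 CPM against 62.2, 54.3 and 64.2 CPM and fell by 0.89, without overlap. The log2 fold changes of TRIM22 and STAT2 were −1.18 and −0.22. Class I antigen presentation genes that respond to interferon rose modestly, HLA-B by 0.85 and HLA-C by 0.78, although 38.1% of the 31-mers of HLA-B occur in other genes.

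The level in DMSO libraries of these genes also changed with time. MX1 was at 130, 132 and 141 CPM with DMSO at 6 h and at 17.9 to 22.3 CPM at 24 h, while with HFG it was at 212, 211 and 191 CPM at 6 h and at 132 to 138 CPM at 24 h. ISG15 went from 48.7, 53 and 47.1 CPM at 6 h to 9.25, 13.5 and 10.1 CPM at 24 h with DMSO, and stood at 52.1, 63.8 and 51.8 CPM at 6 h and 52.0, 49.2 and 44.1 CPM at 24 h with HFG. IFIT1 went from 5.59, 9.47 and 6.42 CPM at 6 h to 0.370, 0.236 and 0.805 CPM at 24 h with DMSO, and from 1.93, 9.84 and 8.14 CPM to 11.3, 15 and 10.6 CPM with HFG. All 3 genes were lower at 24 h than at 6 h in the DMSO libraries, without overlap. IFIT2 was low at 6 h in both groups, being at 3.62, 3.16 and 5.35 CPM with DMSO and at 6.18, 5.05 and 5.17 CPM with HFG at 6 h, far below the HFG level at 24 h. The 6 h cells were stored frozen before extraction and the 24 h cells were not, so time and storage cannot be told apart in such levels.

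**Figure D2:**
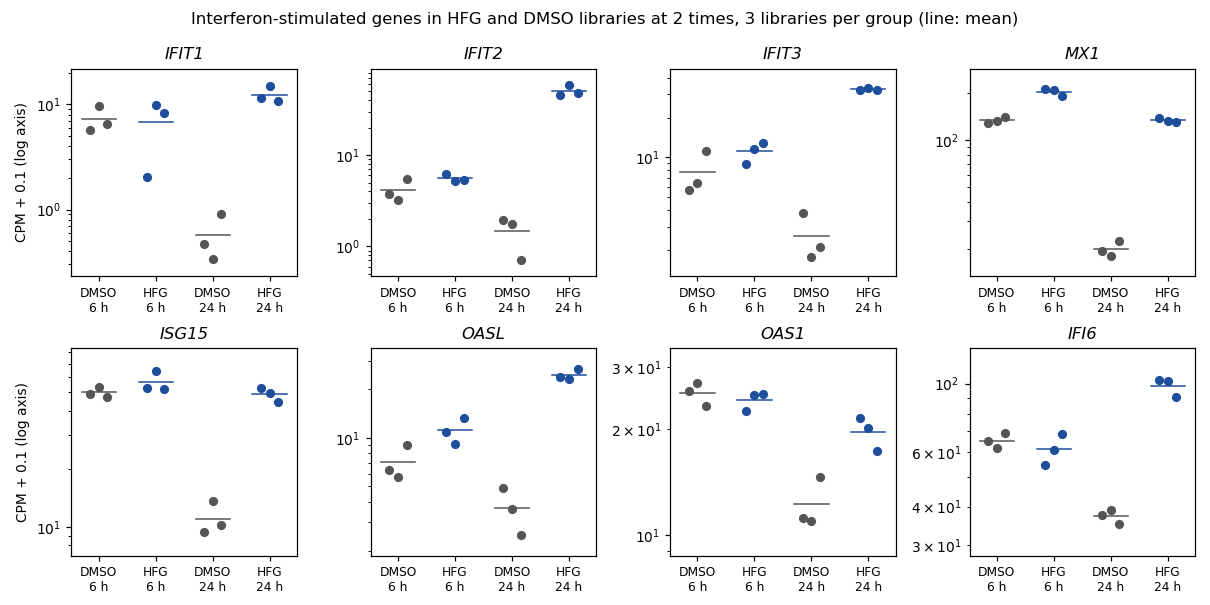
Normalised counts (CPM plus 0.1, log axis) of 8 interferon-stimulated genes in AMO1 libraries with DMSO or HFG at 6 h and 24 h; points are the 3 libraries of a group, lines their means. IFIT1, IFIT2 and IFIT3 separate at 24 h, IFIT1, IFIT3, MX1 and ISG15 are lower at 24 h than at 6 h in DMSO, and IFI6 lies higher with HFG at 24 h (90.1 to 103 CPM against 35 to 39).

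Of 16 NF-kB targets 13 rose and 2 fell (median 0.46), with 4 higher in a fit with a term for the sample set, described at the end. Among them were LTA, the cytokine lymphotoxin alpha, at 4.52, 8.33 and 10.9 CPM against 0.740, 0.472 and 1.21 CPM (log2 fold change 3.26) and NFKBIA, the feedback inhibitor, at 96.7, 92.1 and 78.2 CPM against 46.6, 41.1 and 43.3 CPM (1.02). TNFAIP3, another feedback inhibitor, fell by 1.02 on the log2 scale. With halofuginol libraries, of the same set as HFG, as controls 13 NF-kB targets were higher and 2 lower. Of 20 AP-1 and immediate early genes 8 rose (40%, beside 28.5% of all tested genes) and 5 fell (25%, beside 30.5%). JUN, a subunit of AP-1, was at 160, 147 and 136 CPM against 36.3, 42.3 and 37.8 CPM (log2 fold change 1.91), and EGR1, a zinc finger factor, at 10.2, 8.75 and 13.6 CPM against 1.85, 0.945 and 2.21 CPM (2.69). EGR1 and LTA were not called in a fit with the set term, in which EGR1 turned to −0.42 (SE 1.47) and LTA was at 1.38 (SE 1.75). Neither gene lost the call in any other alternative, and with NCP22 libraries as controls EGR1 was called at 1.87.

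**Figure D3:**
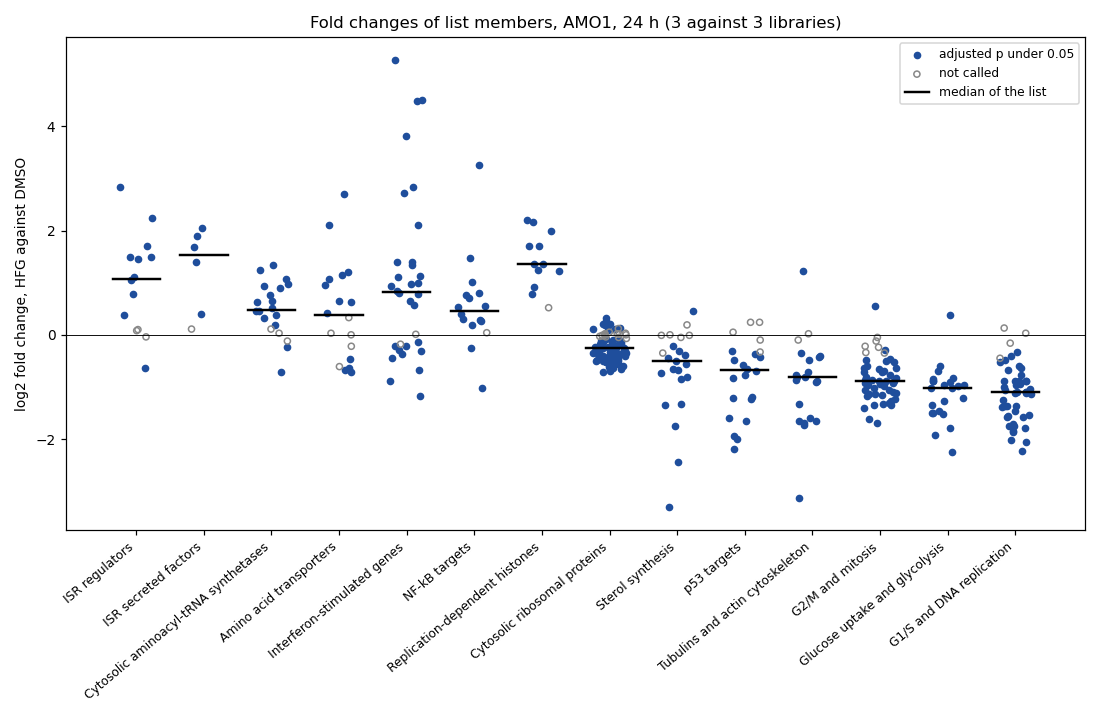
Log2 fold changes of HFG against DMSO at 24 h for the tested members of 14 gene lists; filled points passed the test, open points did not, and black lines are list medians. ISR regulators, secreted factors and histones lie mostly above 0, G1/S, glycolysis, G2/M and p53 target genes mostly below 0, and ribosomal proteins spread closely around a median of −0.25.

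Cell cycle genes fell nearly throughout. Of 47 genes of G1/S and DNA replication, 0 rose and 43 fell, with a median log2 fold change of −1.10 and 28 at least 2-fold lower; of 50 genes of G2/M and mitosis 1 rose and 43 fell (median −0.88). CDT1, which licenses replication origins, was at 28.3, 30.8 and 28.5 CPM with HFG and at 120, 123 and 121 CPM with DMSO, a log2 fold change of −2.05 (SE 0.09, adjusted p = 6.4e-13, edgeR). The HFG libraries all lay at about the same low level. CDCA7 fell by 2.22, thymidine kinase TK1 by 2.01 and RRM2, a subunit of ribonucleotide reductase, by 1.85. In mitosis the spindle checkpoint kinase TTK fell by 1.7, UBE2C, which feeds the anaphase-promoting complex, by 1.61 and TOP2A by 1.40, and AURKB, the Aurora kinase of the centromere, was at 20.4, 22.5 and 18.6 CPM against 45.5, 52.7 and 56.0 CPM (log2 fold change −1.35). BUB3, a checkpoint protein, was the member that rose, from 232, 219 and 221 CPM to 328, 324 and 330 CPM. The letters TTTNGCGC on either strand, a core bound by E2F factors, stood in 31.7% of G1/S promoters, in 1.84% of all and in 3.15% of those of tested genes. Their share was 2.65% for genes at least 2-fold lower and 2.97% for genes at least 2-fold higher. TTTGAA on either strand, the cell cycle homology element, stood in 54.8% of G2/M promoters, in 16.1% of all and in 11.8% of those of tested genes. Its share was 14% for genes at least 2-fold lower and 13.3% for genes at least 2-fold higher.

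Replication-dependent histone genes went the opposite way: of 12 tested, 11 rose and 0 fell, with a median log2 fold change of 1.36 and 9 at least 2-fold higher. H1-2, a linker histone, was at 234, 232 and 244 CPM with HFG and at 91.8, 97.1 and 87.8 CPM with DMSO, without overlap (log2 fold change 1.36). H2BC11 and H2BC4, which encode histone H2B, rose by 2.20 and 2.17. Such transcripts normally lack a poly(A) tail, so a poly(A) library sees only the tailed fraction, and of 57 genes on the list 23 were in the table.

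Brakes and drivers of proliferation fell together. Of 22 tested p53 targets 0 rose and 17 fell, with a median log2 fold change of −0.68 and 8 at least 2-fold lower. CDKN1A, which encodes the cell cycle inhibitor p21, was at 84.8, 86.2 and 79.2 CPM with HFG and at 350, 420 and 366 CPM with DMSO (log2 fold change −2.19, SE 0.08, adjusted p = 3.3e-14, edgeR), and MDM2, the ligase of p53, at 354, 380 and 364 CPM against 896, 882 and 826 CPM (−1.24). FDXR and TP53INP1 fell by 1.99 and 1.94, and the death effector BAX by 0.82. MYC was at 283, 258 and 277 CPM against 421, 415 and 431 CPM, a log2 fold change of −0.63 (SE 0.05, adjusted p = 7.7e-09, edgeR); of 11 genes of its network 8 fell and MYCN rose, with 5 lower when NCP22 libraries were the controls. Of 15 PIM kinases, D cyclins and their partners 3 rose and 9 fell: the survival kinase PIM1 was at 39.6, 53.3 and 48 CPM against 191, 205 and 191 CPM (−2.04), PIM2 at 652, 647 and 656 CPM against 1035, 1128 and 1109 CPM (−0.74) and the inhibitor CDKN1C fell by 2.63. CCND1 was at 3.96, 1.67 and 2.98 CPM against 9.62, 7.32 and 10.9 CPM, a fall of 1.72 at a low level, and CCND2 fell by 0.17, which was not called with NCP22 libraries (−0.15) or halofuginol libraries (−0.09) as controls.

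Of 32 genes of the BCL2 family and the death receptors 13 rose (40.6%, beside 28.5% of all tested genes) and 11 fell (34.4%, beside 30.5%). PMAIP1, which encodes the pro-apoptotic NOXA, was at 81.4, 84.2 and 95.4 CPM with HFG against 21.8, 23.6 and 22.1 CPM with DMSO, a log2 fold change of 1.95 (SE 0.10, adjusted p = 1.2e-11, edgeR). BMF, another BH3-only protein, rose by 1.00, whereas BCL2L11, which encodes BIM, was at 173, 195 and 175 CPM against 314, 330 and 285 CPM and fell by 0.77. The survival genes BCL2 and MCL1 fell by 0.35 and 0.21. With NCP22 libraries as controls the value of MCL1 was −0.05 and was not called, and with halofuginol libraries it was −0.17 and was called.

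Of 23 plasma cell transcription factors 9 rose (39.1%, beside 28.5% of all tested genes) and 8 fell (34.8%, beside 30.5%). POU2AF1, a B cell coactivator, was at 196, 176 and 181 CPM against 712, 702 and 703 CPM, a log2 fold change of −1.94 (SE 0.05, adjusted p = 9.7e-16, edgeR). KLF2, a factor of lymphocyte trafficking, was at 8.48, 12.5 and 11.3 CPM against 124, 128 and 123 CPM (−3.50). Both were low in all HFG libraries. XBP1, which sustains secretion, rose by 0.71, IRF4 was at 475, 478 and 513 CPM against 610, 613 and 562 CPM and fell by 0.28, and PRDM1, which encodes BLIMP1, was at 129, 130 and 129 CPM against 140, 135 and 143 CPM and did not pass the test (log2 fold change −0.11, adjusted p = 0.169, edgeR), although it did with a GC offset (−0.15). MAF was at 15.8, 6.25 and 6.63 CPM against 0.740, 1.42 and 1.61 CPM (log2 fold change 2.71). With the NCP22 libraries as controls its fold change was 0.31 and was not called, and with halofuginol libraries it was 2.11 and was called. At the cell surface 7 of 20 antigens rose (35%, beside 28.5% of all tested genes) and 10 fell (50%, beside 30.5%). SDC1, the myeloma marker CD138, was at 1113, 1038 and 983 CPM against 2466, 2516 and 2719 CPM (−1.3), SLAMF7, the target of elotuzumab, at 323, 312 and 329 CPM against 98.1, 99.4 and 112 CPM (1.64), and the adhesion receptor CD44 at 24.9, 15.4 and 8.95 CPM against 91.4, 88.3 and 89.0 CPM (−2.55). BCMA (TNFRSF17) and CD38 did not pass the test, at log2 fold changes of −0.15 and 0.03.

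**Figure D4:**
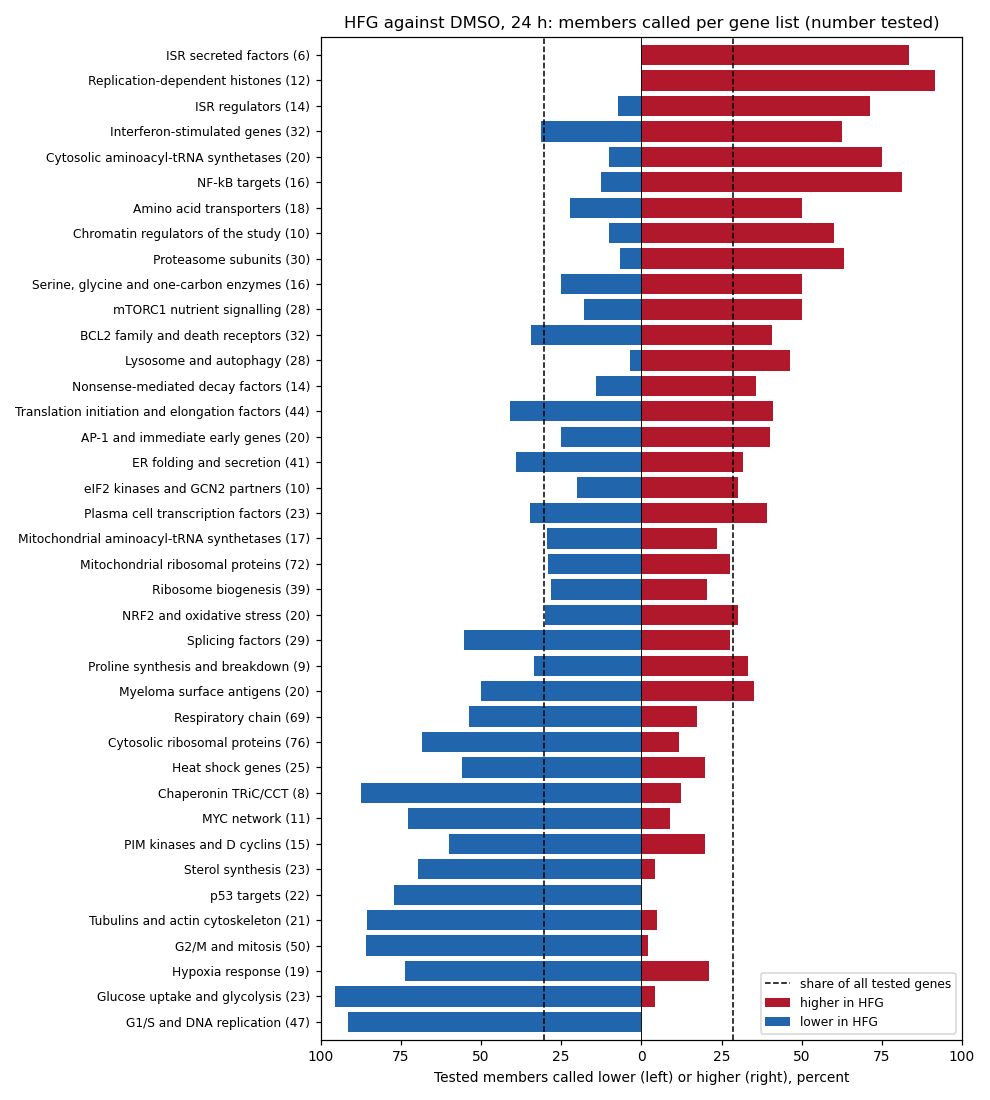
Percent of the tested members of each gene list called lower (left) or higher (right) in HFG against DMSO at 24 h, ordered by median log2 fold change; dashed lines mark the shares of all tested genes, 28.5% higher and 30.5% lower. Histones and secreted ISR factors stand furthest right of the higher line, and glycolysis and G1/S genes furthest left of the lower line.

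Transcripts of glucose uptake and glycolysis genes were lower with HFG. Of 23 genes of glucose uptake and glycolysis 22 fell and 1, the lactate carrier SLC16A1, rose, with a median log2 fold change of −1.02 and 12 at least 2-fold lower. PGK1, phosphoglycerate kinase, was at 842, 807 and 919 CPM against 2417, 2467 and 2442 CPM, a log2 fold change of −1.51 (SE 0.04, adjusted p = 2e-15, edgeR; 12.6% of its 31-mers occur in other genes). The first enzyme HK1 fell by 2.24, PFKP, which commits glucose to glycolysis, by 1.79, ALDOC by 1.92, ENO1 by 1.03 and GAPDH by 1.02 on the log2 scale. Of 19 hypoxia-response genes 14 fell and 4 rose (median −0.95). NDRG1, induced by low oxygen, was at 59.4, 56.7 and 61.0 CPM against 325, 349 and 316 CPM (−2.48), HILPDA, a lipid droplet protein, at 54.8, 58.3 and 63.9 CPM against 203, 217 and 196 CPM (−1.79), and VEGFA rose by 0.39. Sterol synthesis genes were lower in 16 of 23 cases and higher in 1 (median −0.50). INSIG1, which retains the sterol sensor, was at 60.5, 62.1 and 71.2 CPM against 352, 343 and 365 CPM (−2.44), and HMGCS1, an early enzyme of the pathway, fell by 1.75. HMGCS1 stood at 134 to 179 CPM with NCP22 and at 156 to 166 CPM with halofuginol, in libraries of the same set as HFG, beside 202 to 209 CPM with DMSO.

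Transcripts of cytosolic ribosomal proteins changed by less than 2-fold against DMSO, as shares of a library. Of 76 cytosolic ribosomal proteins 9 rose and 52 fell, with a median log2 fold change of −0.25 and 0 at least 2-fold lower, but with the set term 0 were called in either direction and the median was 0.13. RPLP1 of the ribosomal stalk was at 1974, 2018 and 2021 CPM against 2313, 2366 and 2396 CPM (−0.23), and RPL5 rose by 0.18. Respiratory chain subunits fell in 37 and rose in 12 of 69 cases (median −0.22), and in 5 and 8 with the set term. With halofuginol libraries, of the same set as HFG, as controls 62 cytosolic ribosomal proteins were lower and 1 higher (median −0.40). Respiratory chain subunits were then lower in 34 cases and higher in 8. Against DMSO translation factors were split at 18 higher and 18 lower of 44 (40.9% each, beside 28.5% and 30.5% of all tested genes). Proteasome subunits rose in 19 and fell in 2 of 30 cases (median 0.27), PSMA4 from 109, 99.9 and 113 CPM to 154, 175 and 166 CPM. Folding chaperones fell more often than they rose. In the chaperonin TRiC 7 of 8 subunits fell and CCT6A rose. Lower subunits numbered 3 with NCP22 libraries as controls, 6 with halofuginol libraries as controls and 1 with the set term. Of 25 heat shock genes 14 fell and 5 rose against DMSO, where HSPA8 fell by 0.81 and HSPA4 rose by 0.71. In the endoplasmic reticulum list 13 of 41 rose (31.7%, beside 28.5% of all tested genes) and 16 fell (39%, beside 30.5%). The chaperone HSPA5 was at 1072, 1088 and 1158 CPM against 1102, 1114 and 1141 CPM, with overlap. Tubulins and actin genes fell in 18 of 21 cases, ACTG1 by 1.66 and TUBB6 by 3.14 on the log2 scale, and 1 rose. Genes of mTORC1 nutrient signalling rose in 14 and fell in 5 of 28 cases, with DEPTOR, an inhibitor of mTOR, at 158, 169 and 174 CPM against 79.9, 69.4 and 73.5 CPM (1.18), FNIP1, a folliculin partner, higher by 1.35 and the activator RHEB by 0.92. Lysosome and autophagy genes rose in 13 and fell in 1 of 28 cases, and the autophagy receptor SQSTM1 was at 1058, 972 and 941 CPM against 564, 559 and 547 CPM (0.83). Of 10 chromatin regulators 6 rose and 1 fell; the study picked these genes on its own libraries, so their count is not independent evidence. ATAD2B, a bromodomain protein, rose by 1.22 and the demethylase TET3 by 0.89.

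Halofuginol is HFG with its ketone reduced to an alcohol, and the paired libraries were matched in dose, time and sample set. HFG differed from halofuginol in 6036 of 10656 genes (56.6%), 2975 higher (27.9%) and 3061 lower (28.7%); this comparison shares the HFG libraries with that against DMSO. IFIT2 was at 1.77, 2.75 and 1.3 CPM with halofuginol, near DMSO and far below HFG, although 2.75 CPM is above every DMSO library. The log2 ratio of HFG to halofuginol was 4.68 (SE 0.24, adjusted p = 1.4e-11, edgeR). CHAC1 was at 7.09, 6.05 and 7.01 CPM with halofuginol, with a log2 ratio of 2.65, and EPRS1 at 368, 374 and 393 CPM, with a ratio of 0.94. POU2AF1 was at 663, 709 and 705 CPM with halofuginol, with a ratio of −1.91. The largest rises also included IFIT1, at 0.886, 1.38 and 0 CPM, MKX and CYP21A2, which encodes a steroid hydroxylase and shares 42.1% of its 31-mers with other genes. Among the largest falls, NMUR1, a neuropeptide receptor, was at 0 to 0.417 CPM with HFG and at 8.82 to 11 CPM with halofuginol. For ATF4, CCND2, PRDM1 and CD38 no difference was called, and the 95% intervals of the log2 ratio ran from −0.22 to 0.02, from −0.21 to 0.03, from −0.13 to 0.18 and from −0.21 to 0.26.

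NCP26, a ProRS inhibitor of the pyrazinamide series that the study developed, was present at 1 µM and 24 h in libraries of the same set. HFG differed from it in 4842 of 10775 genes (44.9%). It was higher in 2409 (22.4%) and lower in 2433 (22.6%), and 857 differed by 2-fold or more (7.95%). Halofuginol and NCP26 were the 2 compounds compared with HFG; with p-values adjusted over both comparisons together the calls numbered 5945 and 4951. HFG was higher than NCP26 in 22 of 33 interferon-stimulated genes and lower in 7 (median log2 ratio 0.51): IFIT2 was at 17.5, 18.9 and 18.7 CPM with NCP26, between DMSO and HFG, and the ratio was 1.47 (SE 0.14, adjusted p = 8.1e-08, edgeR). MX1 was at 75.8, 66.7 and 79.5 CPM with NCP26, also in between, at a ratio of 0.85. The ISR regulators were lower with HFG in 8 of 14 cases and higher in 2, CHAC1 being at 14.3, 17.2 and 24.2 CPM with NCP26 (ratio 1.17), DDIT3 higher with NCP26 (−0.57), and ATF3 at 94.2, 93.3 and 91.6 CPM with an interval of its ratio from −0.21 to 0.11.

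The sharpest contrast with NCP26 lay in p53 targets, of which 19 of 23 were lower with HFG and 0 higher (median log2 ratio −1.02). CDKN1A was at 313, 286 and 299 CPM with NCP26, against 79.2 to 86.2 CPM with HFG and 350 to 420 CPM with DMSO, and the ratio of HFG to NCP26 was −1.84 (SE 0.07, adjusted p = 2e-13, edgeR). Of 9 genes of the proline pathway 4 were higher with HFG (44.4%, beside 22.4% of all tested genes) and 2 lower (22.2%, beside 22.6%). Their log2 ratios ran from −1.96 to 1.07. The highest was that of PYCR1, at 77.1, 72.8 and 78.6 CPM with NCP26 and higher with HFG by 1.07. Ribosome biogenesis genes were higher with HFG in 29 of 39 cases and lower in 0, cytosolic ribosomal proteins in 60 of 76 and lower in 5, and G2/M genes in 24 of 50 and lower in 2. Glycolysis genes were lower in 18 of 23 cases and higher in 3, with PGK1 at 1170, 1139 and 1108 CPM with NCP26. G1/S genes differed in few cases, 4 higher and 8 lower of 46; RRM2 gave an interval from −0.22 to 0.17 and TOP2A, of G2/M, one from −0.13 to 0.14. Among single genes EGR1 was at 1.25, 0.976 and 0.605 CPM with NCP26 and had the largest ratio, 3.50, followed by KCNK2, SERF1A and SCARF2; KCNK2 and SCARF2 rested on HFG replicate 1, without which their ratios were 0.81 and 0.89, and SERF1A shares 98.0% of its 31-mers with other genes. STEAP1, PHKA1, L1CAM and SOX5 were at 0.417 to 3.75 CPM with HFG and at 7.86 to 15.9 CPM with NCP26.

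**Figure D5:**
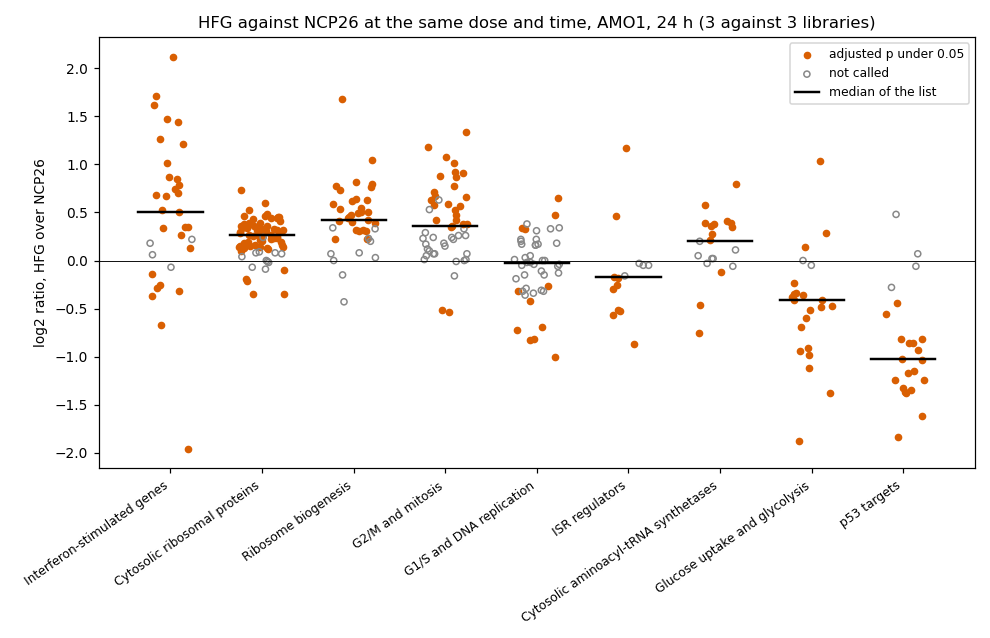
Log2 ratios of HFG over NCP26 (1 µM, 24 h, 3 libraries each) for the tested members of 9 gene lists; filled points passed the test, open points did not, and black lines are list medians. Interferon-stimulated genes lie mostly above 0 (median 0.51) and p53 targets mostly below 0 (median −1.02), while G1/S genes centre on 0 (median −0.03).

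Against the effect of HFG at 6 h, that at 24 h differed in 4389 of 11094 genes (39.6%), 2056 towards higher (18.5%) and 2333 towards lower values (21%), in one fit of 12 libraries that tested the difference of the effects. ISR genes followed separate courses. ATF3 was at 182, 189 and 174 CPM with HFG at 6 h against 12.5 to 16.4 CPM with DMSO, and its effect was smaller at 24 h by 1.39 on the log2 scale (SE 0.16, adjusted p = 1.3e-06, edgeR). CHAC1, at 18.9, 18.1 and 16.4 CPM against 11.1 to 14.2 CPM at 6 h, had a larger effect at 24 h, by 2.31. The difference was also positive for EPRS1 (0.70), ASNS (0.71), PHGDH (1.41) and PYCR1 (0.86), and DDIT3 and SLC7A11 did not pass this test, with intervals from −0.54 to 0.01 and from −0.27 to 0.60. The plasma cell factor IRF4 was at 116, 122 and 120 CPM with HFG and 296 to 345 CPM with DMSO at 6 h, and at 24 h HFG was nearer to DMSO (difference 1.12); PRDM1 behaved alike (0.88). POU2AF1 was as low at 6 h, at 168, 204 and 204 CPM against 701 to 710 CPM (difference −0.07, not called).

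By list, the effect at 24 h was higher than at 6 h in 22 of 33 interferon-stimulated genes and lower in 3, and higher in 59 of 76 cytosolic ribosomal proteins and lower in 0. It was lower in 12 of 22 AP-1 and immediate early genes and higher in 0, and lower in 31 of 47 G1/S genes and higher in 1. JUN gave a difference of −1.26. FOSL2, another AP-1 subunit, was at 68.7, 91.2 and 93.8 CPM with HFG and 11.4 to 16.1 CPM with DMSO at 6 h but at 21.5, 15.4 and 26.2 CPM with HFG and 36.6 to 46.3 CPM with DMSO at 24 h, so that the direction turned (difference −3.70). The HFG and DMSO libraries of 6 h are of one set and those of 24 h of different ones, so set and time cannot be told apart in these differences.

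A term for the sample set could be added to a fit of all 18 libraries of AMO1 cells at 24 h, since CFZ (carfilzomib) libraries occur in both sets, but it then rests on 3 libraries alone. Where the fit of the 6 libraries called 6328 of 10723 genes, the fit with the set term called 3033 of 11236. Of these calls 1359 were higher and 1674 lower, and 1677 were at least 2-fold. In that fit the log2 fold changes of EIF2AK4 (0.52), EIF2AK2 (0.55), CCND1 (−0.65), CCND2 (−0.54), MYCN (1.92), RGPD2 (−4.24), FBL (−0.64), a methylase of ribosomal RNA, MCL1 (−0.17), TET3 (0.40), MAF (0.82), KCNK2 (0.76), EHHADH (0.63) and OR1N1 (0.31) were not called. IFIT2, CHAC1, EPRS1, CDKN1A and ARHGDIB were called in it at 6.77, 3.13, 1.05, −2.26 and −4.12. They also kept their direction and stayed past the threshold with NCP22 libraries of the same set as controls, at 5.6, 2.56, 0.99, −2.11 and −4.29. Of the genes not called with the set term, EIF2AK4, EIF2AK2, CCND1, MYCN, FBL and TET3 lost the call in no other alternative. CCND1 had an SE of 1.05 with the set term and was called at −1.43 and −1.36 with NCP22 and halofuginol libraries. CCND2, MCL1, MAF, KCNK2, EHHADH and OR1N1 were not called with NCP22 libraries either.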

How the data were processed

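Polyadenylated RNA of AMO1 cells was sequenced from directional NEBNext Ultra II libraries. The deposited table, per the labels and methods, holds whole-number counts per gene, without normalization, that the authors made with kallisto (31-mers); the methods name a GRCh38 transcriptome and the submitters' notes hg19, its version and annotation were not given in the sources used here. Positions and names are from GENCODE v44 on GRCh38 and promoters from RefSeq.

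Samples were grouped by their labels. Counts of the 6 libraries compared were filtered with filterByExpr (minimum count 10, minimum total 15), TMM-scaled and fitted with edgeR 4.0.16 in R 4.3.3 (quasi-likelihood F test, Benjamini-Hochberg adjustment, threshold 0.05). Each SE is the log2 fold change over the root of its F statistic, without sign, and intervals are at 95%. CPM used TMM factors over 36 AMO1 libraries. HFG was also compared with halofuginol and NCP26 at 24 h, and its effects at 24 h and 6 h were compared by an interaction over 12 libraries. Steps were tested on simulated data. Total counts of 1666325 to 5005629 limit the precision of genes of a few CPM.

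Named genes were the 10 largest rises and falls among called genes that averaged 5 CPM or more and whose groups did not overlap (4 for the other comparisons; 1 riser without a symbol is not described, and some named genes are not reported here), up to 4 members of each of the 43 gene lists with the members closest to its role, and a set of genes of the study. The members and lists were chosen with earlier results of these data known. Same-numbered HFG and DMSO replicates did not deviate together (correlations −0.0723, −0.0596 and −0.0512), so numbers were not used as pairs. Alternatives were DESeq2 1.42.0 and its size factors, no filter, leaving out each library, the replicate block, all 18 libraries of 24 h with or without a set term, NCP22 or halofuginol as controls, and an offset for GC content (lowess span 0.3). Figures were drawn with matplotlib 3.10.9 in Python 3.11.15.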

Additional observations from a re-analysis of the deposited data

Results flagged for a closer look

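Each result here was singled out because the effect of HFG against DMSO differed between 24 h and 6 h by the test of that difference (edgeR's quasi-likelihood interaction test, Benjamini-Hochberg adjustment over 11094 genes), which called 4389 genes and 34 of the 48 named genes tested. A positive value means that HFG against DMSO was higher at 24 h than at 6 h, on the log2 scale. Groups of 3 libraries are too small for a test of single outlying samples.

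Interferon-stimulated genes gave positive differences, IFIT2 of 4.87, IFIT1 of 4.50, IFIT3 of 3.23 and DDX60 of 2.22, whereas GBP1, a guanylate-binding protein, gave −3.54. Stress and amino acid genes were split. CHAC1 gave 2.31, SESN2 0.98, PYCR1 0.86, ASNS 0.71, EPRS1 0.70, TRIB3 0.62 and ALDH18A1 0.53, while ATF3 gave −1.39. Of the genes with the largest fall at 24 h, SLC2A5 gave −3.50, CMBL −3.07, CUX2 −2.96, S100A4 −2.83, ARHGDIB −2.18 and SFN −1.51, and SPATA13 (−3.87) and PRSS21 (−3.35) rest on 3 counts or fewer in the HFG libraries of 24 h. FOSL2 gave −3.70 and the homeobox gene MKX 1.32.

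Among plasma cell and proliferation genes, IRF4 gave 1.12, PRDM1 0.88, CDKN1A 0.62, MYC 0.61, PIM2 0.40 and TCF3 0.22, and CCND2 gave −0.72, MDM2 −0.25, AURKA −0.50 and AURKB −1.07. SLX1B gave 5.84. Its DMSO libraries of 24 h were at 2.59, 15.3 and 0 CPM and its HFG libraries at 33.4, 29.6 and 25.2 CPM, 98.8% of its 31-mers occur in other genes, and without DMSO replicate 3 of 6 h the difference was 4.44 and was not called.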

How the results depend on the processing

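The count of 6328 genes called in HFG against DMSO ran from 5724 (without HFG replicate 3) to 6256 (without HFG replicate 1) with single libraries left out, and was 5177 by DESeq2, 6687 without a filter, 5447 in one fit of the 18 libraries of 24 h, 5336 and 6036 with NCP22 and halofuginol libraries as controls and 6241 with a GC offset. It moved by more than 1.5 times with a minimum change of 2-fold (1551) and with a set term (3033), a term that rests on 3 CFZ libraries; 2901 of these 3033 were also called, in the same direction, in the fit of the 6 libraries. The counts against halofuginol, against NCP26 and between times ran from 5261 to 5857, from 4166 to 4742 and from 3775 to 4390 without single libraries, and were 4851, 3514 and 3492 by DESeq2. With the replicate block they were 6183, 5988, 4778 and 4151; the block changed no call of a named gene. Over 186 named genes and 2782 recomputed values against DMSO, 77 lost and 3 gained the call and 4 changed sign, in 52 of the 186 genes, the changes of sign all with the set term: NARS2 (−0.09), ATP5F1E (−0.40), EGR1 (−0.42) and NSD1 (−0.04). The SE of these 4 values with the set term were 1.39, 0.93, 1.47 and 0.38. Against NCP26, SERF1A lost the call by DESeq2 (2.82). The cause of these changes was not tested. List counts without HFG replicate 1, an alternative chosen after the data were seen, were 11 higher and 1 lower for ISR regulators, 20 and 9 for interferon-stimulated genes, 0 and 42 for G1/S genes and 0 and 17 for p53 targets. With the set term the lower counts went from 52 to 0 for cytosolic ribosomal proteins, from 37 to 5 for the respiratory chain, from 21 to 1 for mitochondrial ribosomal proteins, from 18 to 5 for translation factors, from 16 to 3 for splicing factors, from 11 to 2 for ribosome biogenesis, from 10 to 2 for interferon-stimulated genes, from 8 to 2 for the MYC network, from 7 to 1 for TRiC, from 14 to 6 for heat shock genes, from 16 to 8 for sterol synthesis, from 43 to 28 for G2/M genes, from 17 to 11 for p53 targets and from 18 to 11 for tubulins and actin. The higher counts went from 13 to 4 for NF-kB targets, from 13 to 5 for lysosome genes, from 14 to 7 for mTORC1 signalling, from 8 to 3 for AP-1 genes, from 19 to 11 for the proteasome, from 11 to 7 for histones and from 6 to 2 for chromatin regulators. Calls also became fewer over all genes, which is the background of these list counts. With the set term 1359 of 11236 tested genes were higher and 1674 lower, beside 3059 and 3269 of 10723 in the fit of the 6 libraries. Lysosome genes were at 8 higher without DMSO replicate 3 and at 7 with halofuginol libraries as controls. With halofuginol libraries as controls the lower counts were, in the order given, 62, 34, 22, 16, 9, 7 and 8 up to interferon-stimulated genes. From the MYC network on they were 5, 6, 12, 14, 38, 17 and 18. The higher counts were 13, 7, 14, 7, 15, 12 and 5 in the order given. Depth limits genes of under about 5 CPM, where a library holds few counts.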

Other observations

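Smaller groups of genes are given here as values for HFG against DMSO at 24 h, by the same edgeR test. Of 20 oxidative stress genes of the NRF2 programme 6 rose and 6 fell, 30% each beside 28.5% and 30.5% of all tested genes. HMOX1, haem oxygenase, was at 49.8, 34.6 and 40.8 CPM with HFG and at 22.2, 22.9 and 22.9 CPM with DMSO (log2 fold change 0.85), and NQO1, a quinone reductase, at 79.2, 74.2 and 65.9 CPM against 49.6, 50.1 and 48.3 CPM (0.55). Both genes were higher in each HFG library. HMOX1 was lower with HFG than with NCP26, by 1.46 on the log2 scale, and its effect was higher at 24 h than at 6 h (difference 2.51).

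Of 29 splicing factors 8 rose (27.6%, beside 28.5% of all tested genes) and 16 fell (55.2%, beside 30.5%). SRSF2, which binds exonic enhancers, was at 235, 217 and 232 CPM against 314, 296 and 327 CPM (−0.46), and SRSF5 rose by 0.36. Of 14 factors of nonsense-mediated decay 5 rose against DMSO (35.7%, beside 28.5% of all tested genes) and 2 fell (14.3%, beside 30.5%). The helicase UPF1 was at 111, 106 and 101 CPM with HFG against 157, 163 and 152 CPM with DMSO (−0.58). The nuclease SMG6 was at 26, 35.8 and 28.8 CPM against 61.8, 53.6 and 62.2 CPM (−0.96), without overlap in either gene. Of 39 ribosome biogenesis genes 8 rose (20.5%, beside 28.5% of all tested genes) and 11 fell (28.2%, beside 30.5%). FBL, the methylase of ribosomal RNA, fell by 0.86 and NCL by 0.65, while DKC1, the pseudouridine synthase, rose by 0.25. With halofuginol libraries as controls 15 ribosome biogenesis genes were higher (38.5%) and 7 lower (17.9%). Of 72 mitochondrial ribosomal proteins 20 rose (27.8%) and 21 fell (29.2%) against DMSO, close to the shares of all tested genes.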
